A study of Mus musculus with 9 samples.

Results

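The genes described are the glycolytic enzymes Pfkm, Aldoa, Aldoc, Tpi1, Gapdh, Pgk1, Pgam1, Eno2, Ldha and Ldhb of mouse brain, 10 genes of which 9 are among the 8127 that could be named on the array. They were chosen by name, and their probes by the NCBI mouse gene number inside the probe identifier. Of 46116 probes on the array, 12 carried one of these numbers, for 9 of the 10 genes. No probe carried the number of Aldoc, the aldolase enriched in astrocytes, and its level was not analysed here. Of the 12 probes, 11 were above background, at a detection p under 0.05, on all 9 arrays. These 11 were compared, among 16375 probes that met the filter of 4 arrays or more. The remaining one, a Pgk1 probe (scl0018655.1_119-S), was above background on 0 of 9 arrays.

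Glycolysis splits glucose into pyruvate in the cytosol, and lactate dehydrogenase then interconverts pyruvate and lactate. Several steps are run by isoforms that tissues and cell types use differently. In brain, Eno2 is the enolase of neurons, and lactate dehydrogenase tetramers mix the Ldha and Ldhb subunits. Many of these genes are known targets of hypoxia-inducible factor (HIF), which also drives Car9, the gene of the acid-exporting carbonic anhydrase CAIX.

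RNA came from brain tissue of C57BL/6 mice aged 8 months and was hybridised to Illumina bead arrays, 1 colour each. The groups by sample title are 4 knockout and 5 wild-type mice. The genotype characteristic names mice lacking CAIX as CAIX ko, but of the arrays titled knockout only knockout 1 carries it. The labels give neither the sex, the design of the targeted allele nor the brain region. They also conflict: title and genotype characteristic differ for 6 of 9 samples, and 4 arrays stand under different samples in the 2 deposited tables, so only 3 arrays keep 1 group in all 4 readings. Groups below follow the titles through the header of the signal table.

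No probe was matched to Car9, so the knockout could not be checked at its target. A probe named for the neomycin resistance gene, NeoR-S, was above background on 4 of 4 arrays titled knockout and on 0 of 5 titled wild type. None of the other readings of the labels divides the arrays in this way. Whether NeoR-S reads the targeted allele was not tested. Xist, the RNA of the inactive X chromosome, was high on 1 knockout and 2 wild-type arrays. Median signals ran from 133.2 on knockout 4 to 209.8 on wild type 1, and 14895 to 17325 probes per array were above background. The tissue label was checked against neuronal markers: 4 of 6 were above the filter, Syt1 at 13.07 ± 0.13 in knockout (SD, n = 4) and 12.90 ± 0.17 in wild type (SD, n = 5) on the log2 scale. Rbfox3 was at 12.69 in knockout and 12.96 in wild type, Tubb3 at 7.79 and 7.80, and Map2 at 6.97 and 6.98. Map2 lay at percentile 10.6 of the compared probes and was above background on 7 arrays. Neither Snap25 nor Nefl passed the filter with a named probe.

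None of the 11 glycolytic probes differed between knockout and wild type at an adjusted p under 0.05 (limma, Benjamini-Hochberg over 16375 probes, smallest adjusted p = 0.267). In the same comparison 4 of all probes, 0.0244%, passed. At an unadjusted p under 0.05 there were 2 glycolytic probes, the bright probe of Pgk1 and the dim probe of Tpi1, 18.2% of the 11 against 11.5% of all probes. Taking the brightest probe of each gene, 5 genes had higher and 4 lower means in knockout, with a median log2 difference of 0.009 against 0 over all probes. The 95% intervals, not adjusted for the number of probes, differed in width. For the fold of knockout over wild type they ran from 0.908 to 1.12 for Aldoa and from 0.825 to 1.395 for Pgam1. For the dim Tpi1 probe the interval ran from 0.574 to 0.903. In whole tissue, fewer cells of a type and less RNA per cell cannot be told apart.

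**Figure D1:**
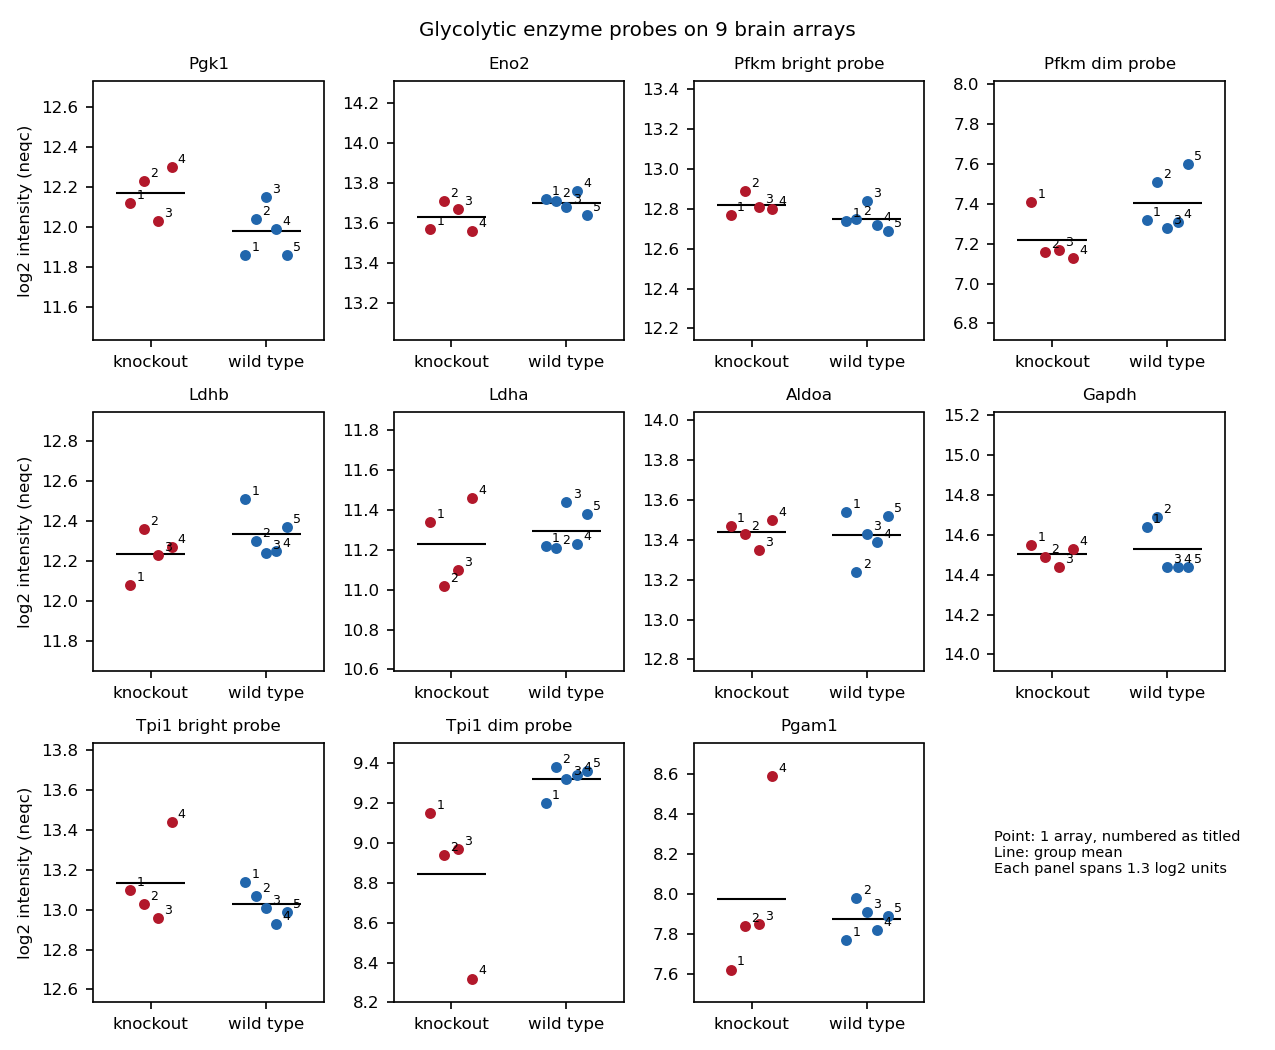
Log2 intensity of the 11 glycolytic probes on each array, knockout at left and wild type at right, with the array number of the title beside each point and a line at the group mean. The groups overlap for every probe but the dim probe of Tpi1, and knockout 4 is the highest array for Pgam1 (8.59) and the bright Tpi1 probe (13.44).

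Signals were high: on the log2 scale of normalized intensity the brightest probe of every gene except Pgam1 lay above at least 94.7% of the compared probes. In order of brightness the probes were Gapdh, Eno2, Aldoa, Tpi1, Pfkm, Ldhb, Pgk1, Ldha and Pgam1, at mean log2 intensities of 14.52, 13.67, 13.43, 13.07, 12.78, 12.29, 12.07, 11.27 and 7.92. This order was the same on all 9 arrays, apart from the neighbours Ldhb and Pgk1, which changed places on some. It is an order of probes and not of mRNA levels, since brightness depends on the probe. The deposited signals show this within genes: the brighter of the Tpi1 probes averaged 10.9 times the dimmer, and for Pfkm the ratio was 23.2.

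Pfkm encodes the muscle-type subunit of phosphofructokinase, which commits sugar phosphate to glycolysis. Its bright probe (scl0018642.1_78-S) was at 12.77, 12.89, 12.81 and 12.80 on knockout 1 to 4, against 12.74, 12.75, 12.84, 12.72 and 12.69 on wild type 1 to 5. All knockout arrays lay above the wild-type mean, and wild type 3 lay among them. The log2 difference was 0.07 (SE 0.043, 95% interval -0.03 to 0.17, limma adjusted p = 0.585). Its dim probe (scl018642.4_28-S) had a mean of the other sign, -0.18 (95% interval -0.37 to 0.01, limma adjusted p = 0.456). On that probe 3 knockout arrays lay between 7.13 and 7.17, knockout 1 lay at 7.41, and the wild-type arrays at 7.28 to 7.60.

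Aldoa, the aldolase that cleaves fructose bisphosphate, differed least. It was at 13.35 to 13.50 on the knockout arrays and 13.24 to 13.54 on the wild-type arrays, a log2 difference of 0.009 (95% interval -0.14 to 0.16, limma adjusted p = 0.979). The whole knockout range lies inside the wild-type range.

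Tpi1, triose phosphate isomerase, gave the widest contrast, and only through its dim probe (scl0021991.1_26-S). That probe was at 9.15, 8.94, 8.97 and 8.32 on knockout 1 to 4, against 9.20, 9.38, 9.32, 9.34 and 9.36 on wild type 1 to 5. Every knockout array lay below every wild-type array, knockout 4 far below, while knockout 1 and wild type 1 were close. Such a separation in either direction occurred for 3.68% of all probes and for 9.09% of the 11, that is 1 probe. The log2 difference was -0.47 (SE 0.15, 95% interval -0.80 to -0.15, a fold of 0.72, limma unadjusted p = 0.00943, adjusted p = 0.267), and -0.30 without knockout 4 (adjusted p = 0.156). Its direction depends on which label is read and through which table: grouped by the genotype characteristic the difference was 0.33, it was 0.159 by titles read through the processed table, and -0.304 by the characteristic read through that table.

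The bright Tpi1 probe (scl021991.1_200-S) did not show this. It was at 13.10, 13.03, 12.96 and 13.44 on knockout 1 to 4, against 13.14, 13.07, 13.01, 12.93 and 12.99 on wild type 1 to 5. Its log2 difference was 0.10 (95% interval -0.11 to 0.31, limma adjusted p = 0.746), which came from knockout 4, since without that array it was 0. Over the 9 arrays the Tpi1 probes had Pearson's r = -0.79 and Spearman's rho = -0.38, and r = -0.01 without knockout 4, given as a description. The Pfkm probes had r = -0.72, rho = -0.73, and r = -0.76 without knockout 4. Which transcript each probe reads was not tested.

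The oligodendrocyte markers were also lower on average in knockout, with a median log2 difference of -0.378. Lower means were not particular to them: 4 of 4 measured astrocyte markers (median -0.1), 3 of 4 neuronal (median -0.006) and 2 of 3 microglial markers (median -0.126) had them too. Of 6 oligodendrocyte markers 3 passed the filter, Mobp, Mog and Cnp, and all 3 had lower means in knockout with none past the threshold. Their signals summed to 805 to 1796 intensity units on the knockout arrays, against 1657 to 2559 on the wild-type arrays. Their mean deviation from the average of all arrays was lowest on knockout 4, at -0.784 on the log2 scale. Mobp, a myelin protein, ran from 8.42 to 10.32 on the knockout arrays, against 10.07 to 10.80 on the wild-type arrays, and its log2 difference of -0.635 was -0.175 without knockout 4. Cnp, an enzyme of myelinating cells, ran from 7.96 to 8.09 on the knockout arrays, against 8.09 to 8.60 on the wild-type arrays. Its log2 difference of -0.378 (limma adjusted p = 0.227) was -0.359 without knockout 4. The part of this in the Tpi1 result was not tested.

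**Figure D2:**
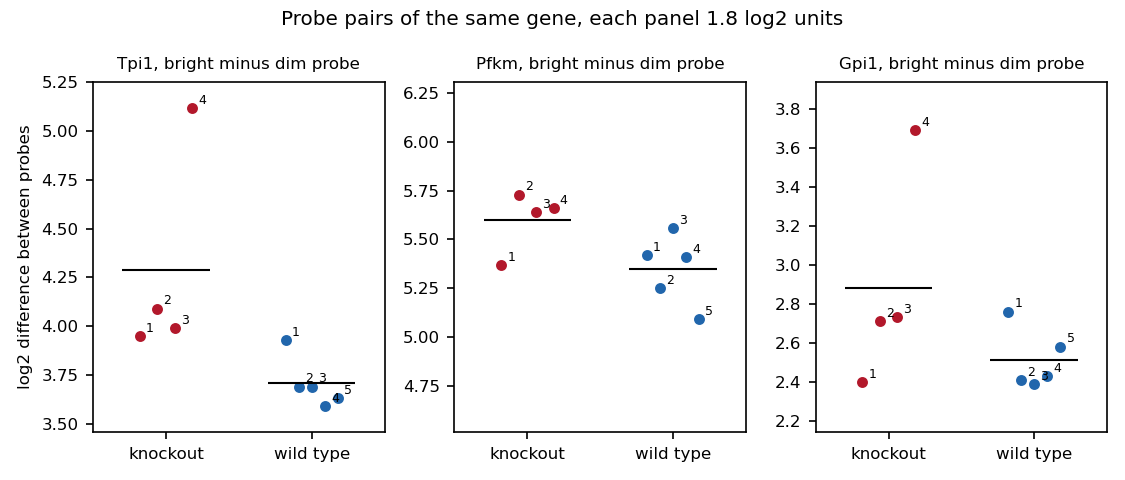
Log2 intensity of the brighter minus the dimmer probe of Tpi1, Pfkm and Gpi1 on each array, knockout at left and wild type at right, with lines at group means. For Tpi1 the difference is 3.95 to 5.12 on knockout arrays and 3.59 to 3.93 on wild-type arrays, and knockout 4 lies far above the rest for Tpi1 and Gpi1.

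Gapdh, the dehydrogenase that yields NADH and is often used as a loading control, had the highest signals of the set. It was at 14.55, 14.49, 14.44 and 14.53 on knockout 1 to 4, against 14.64, 14.69, 14.44, 14.44 and 14.44 on wild type 1 to 5. On each array it was among the 25 brightest probes, and the arrays at 14.44 share that value because quantile normalization gives equal ranks equal values. The log2 difference was -0.03 (95% interval -0.18 to 0.12, limma adjusted p = 0.921), with a sign that turned to 0.047 with median scaling and 0.045 with cyclic loess.

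Pgk1, phosphoglycerate kinase, makes the first ATP of the pathway and is a known HIF target. Its bright probe (scl018655.12_25-S) was at 12.12, 12.23, 12.03 and 12.30 on knockout 1 to 4, against 11.86, 12.04, 12.15, 11.99 and 11.86 on wild type 1 to 5. All 4 knockout arrays lay above the wild-type mean, but wild type 2 and wild type 3 reached into the knockout range. The log2 difference was 0.19 (SE 0.077, 95% interval 0.02 to 0.37), a fold of 1.14 with bounds of 1.01 and 1.29, at a limma unadjusted p = 0.0316 and adjusted p = 0.383. Leaving out any 1 array gave 0.15 to 0.24. Grouped by the genotype characteristic the difference was -0.066, it was -0.027 by titles read through the processed table, and 0.156 by the characteristic read through that table.

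Promoters of Pgk1 and of the lactate dehydrogenase pair are shown for their copies of the hypoxia response element core, the short sequence HIF binds. The core was searched as ACGTG and GCGTG and, for the other strand, as CACGT and CACGC, and CACGTG holds a match on each strand. Capitals mark the matches in the 250 bases before the transcription start. Sequence and coordinates are from RefSeq, GRCm38.p6, written 5′ to 3′ along the gene.
Pgk1 promoter, chrX:106186850-106187099, plus strand: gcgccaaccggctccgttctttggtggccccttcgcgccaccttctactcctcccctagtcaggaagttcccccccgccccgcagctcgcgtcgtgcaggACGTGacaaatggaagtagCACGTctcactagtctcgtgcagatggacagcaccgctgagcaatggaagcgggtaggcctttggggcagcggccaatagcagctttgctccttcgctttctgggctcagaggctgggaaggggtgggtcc
Ldha promoter, chr7:46845554-46845803, plus strand: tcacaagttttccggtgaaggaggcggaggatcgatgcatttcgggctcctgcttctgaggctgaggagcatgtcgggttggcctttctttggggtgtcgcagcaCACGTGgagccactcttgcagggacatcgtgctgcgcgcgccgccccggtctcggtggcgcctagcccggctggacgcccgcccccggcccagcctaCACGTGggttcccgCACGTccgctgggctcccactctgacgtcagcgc
Ldhb promoter, chr6:142507958-142508207, minus strand: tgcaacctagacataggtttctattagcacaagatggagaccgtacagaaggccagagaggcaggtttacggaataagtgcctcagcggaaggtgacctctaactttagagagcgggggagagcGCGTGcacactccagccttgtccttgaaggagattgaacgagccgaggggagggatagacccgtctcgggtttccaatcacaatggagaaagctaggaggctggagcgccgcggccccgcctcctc
The Pgk1 window holds 2 matches, the Ldha window printed 5 in 3 separate places and the Ldhb window 1. Ldha has a second window, chr7:46846832-46847081, with 1 match, as many as Ldhb, so the count for Ldha depends on the start chosen. Of all 32851 promoter windows of this length, 38.6% hold at least 1 match. Among the windows of the 10 enzymes 13 of 17 did, and several of these windows belong to 1 gene, some of them overlapping. The single windows of Eno2 and Tpi1 held 0. Median GC content was 55.6% in the windows of the enzymes and 52.4% in all windows. A match is a description of letters and does not show binding.

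Pgam1, phosphoglycerate mutase, was one of the most variable of the set and, by the brightest probe of each gene, the dimmest. It was at 7.62, 7.84, 7.85 and 8.59 on knockout 1 to 4, against 7.77, 7.98, 7.91, 7.82 and 7.89 on wild type 1 to 5. Knockout 1 was the lowest and knockout 4 the highest of all arrays. Its standard deviation over the 9 arrays, 0.27, was above that of 90.3% of compared probes. The log2 difference of 0.10 (95% interval -0.28 to 0.48, limma adjusted p = 0.882) became -0.10 without knockout 4.

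Eno2, the enolase of neurons, was the steadiest bright probe after the bright one of Pfkm, with standard deviations over 9 arrays of 0.069 and 0.062. It was at 13.57, 13.71, 13.67 and 13.56 on knockout 1 to 4, against 13.72, 13.71, 13.68, 13.76 and 13.64 on wild type 1 to 5. Knockout 1 and 4 lay lowest and the groups overlapped. The log2 difference was -0.08 (SE 0.045, 95% interval -0.18 to 0.03, limma adjusted p = 0.570). The neuronal marker Rbfox3, which marks neuronal nuclei, was also lower in the knockout mean, at -0.28 (limma adjusted p = 0.435) or -0.143 without knockout 4, while Syt1 was at 0.17 (adjusted p = 0.553). The 4 measured neuronal markers summed to 13839 to 17017 intensity units on knockout arrays and 15087 to 18211 on wild-type arrays, and their part in the Eno2 value was not tested.

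**Figure D3:**
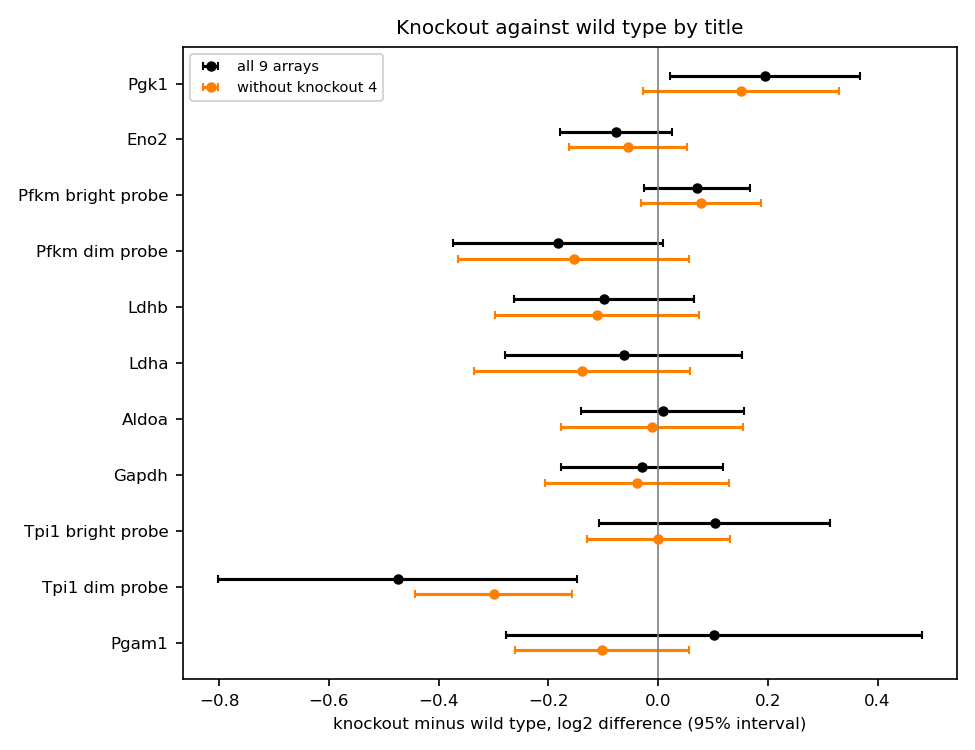
Log2 difference, knockout minus wild type, of the 11 probes with 95% intervals from limma, over all 9 arrays (black) and without knockout 4 (orange). The interval of the dim Tpi1 probe lies below 0 in both, that of Pgk1 lies above 0 with all arrays (0.02 to 0.37) and spans 0 without knockout 4, and the other intervals span 0.

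Ldha and Ldhb encode the subunits of lactate dehydrogenase, with Ldha known to favour lactate formation and Ldhb to prevail in oxidative cells. Ldha was at 11.34, 11.02, 11.10 and 11.46 on knockout 1 to 4, against 11.22, 11.21, 11.44, 11.23 and 11.38 on wild type 1 to 5. The knockout arrays formed the lowest and the highest values. The log2 difference was -0.06 (95% interval -0.28 to 0.15, limma adjusted p = 0.869). Ldhb was at 12.08, 12.36, 12.23 and 12.27 on knockout 1 to 4, against 12.51, 12.30, 12.24, 12.25 and 12.37 on wild type 1 to 5. Its log2 difference was -0.10 (95% interval -0.26 to 0.06, limma adjusted p = 0.669), with knockout 1 lowest and wild type 1 highest.

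The balance of isoforms was followed as the log2 difference of a pair of probes on each array, which is not a ratio of mRNAs. Bright minus dim probes of a single gene also shifted between the groups, by 0.58 for Tpi1, 0.37 for Gpi1 and 0.25 for Pfkm. A shift between isoform probes therefore need not be one of isoforms. No test was made of the isoform values. Ldha minus Ldhb was -1.003 ± 0.28 in knockout (SD, n = 4) and -1.04 ± 0.18 in wild type (SD, n = 5). Between groups it differed by 0.036, within the spread of either, and the sign turned without wild type 1 (-0.027), knockout 1 (-0.052) or knockout 4 (-0.027). Knockout 1 and 2 held the highest and lowest values, -0.74 and -1.34. Eno1 minus Eno2, the enolase of most tissues against that of neurons, was -2.36 ± 0.21 in knockout and -2.45 ± 0.073 in wild type. Pfkl minus Pfkm, liver-type against muscle-type phosphofructokinase, was -1.25 ± 0.32 in knockout and -1.06 ± 0.090 in wild type. On 3 knockout arrays it lay below every wild-type array, and on knockout 1, at -0.79, above them all. Pfkp minus Pfkm, with the platelet-type subunit, was -5.40 ± 0.16 in knockout and -5.34 ± 0.13 in wild type. Both of these pairs use the bright Pfkm probe. The dim Pfkm probe ran against it over the 9 arrays (r = -0.72), and the pairs were not followed with the dim probe.

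**Figure D4:**
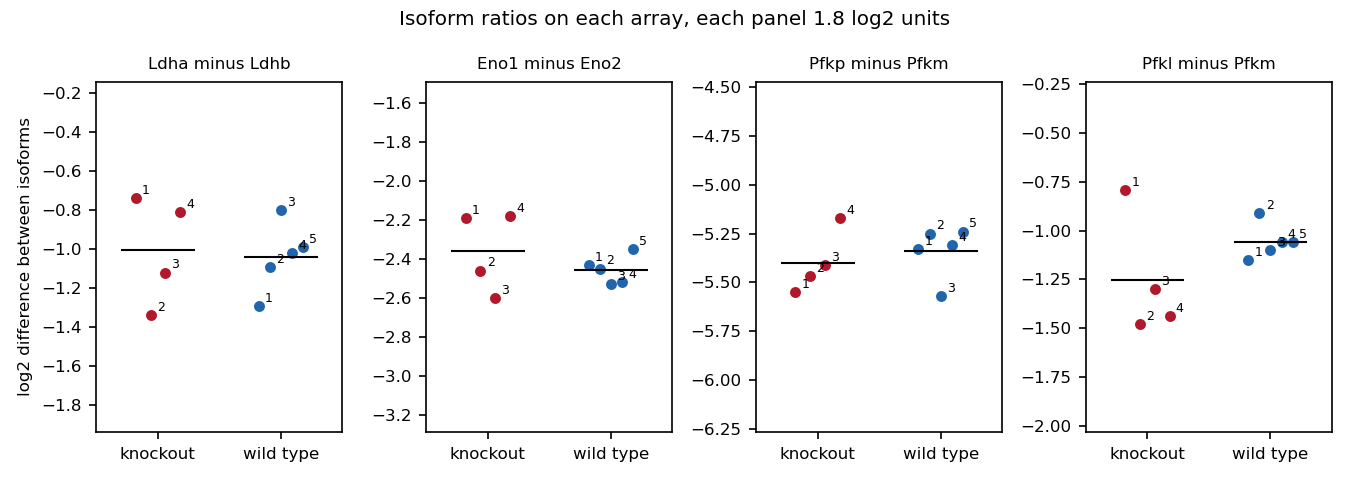
Log2 difference between the probes of isoform pairs on each array, knockout at left and wild type at right, with array numbers and lines at group means. Pfkm is read from its bright probe. All pairs overlap between the groups. For Pfkl minus Pfkm knockout 2, 3 and 4 lie below the wild-type arrays while knockout 1 lies above them at -0.79.

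The enzymes did not vary as 1 block over the arrays. Each gene was taken by its brightest probe. Averaged over the 9 genes, the deviation from each gene's mean was 0.159 on knockout 4, while the other 8 arrays ran from -0.064 to 0.015. Pgam1 (0.668) and the bright Tpi1 probe (0.364) carried that mean. The dim Tpi1 probe, not part of the mean, went the other way on knockout 4, at -0.788. The median deviation was 0.066 on knockout 4 and 0.055 on wild type 1. Knockout 4 held the highest value for 4 of the genes and the lowest for 1. A few pairs were picked from all pairs of genes. Pgk1 and the bright Pfkm probe went together (r = 0.75, rho = 0.80 over 9 arrays), and Eno2 and Ldha apart (r = -0.59, rho = -0.54). The dim Pfkm probe ran against the bright one (r = -0.72). Eno2 and Tpi1 had r = -0.62 and rho = -0.34, and Gapdh and Tpi1 r = 0.39 and rho = 0.80. The Tpi1 and Pgam1 pair had r = 0.78 but rho = 0.10. These correlations describe 9 arrays that share their processing.

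Among 4189 named genes the one most like each enzyme over the 9 arrays was picked by the highest Pearson's r, so the values have no p and are descriptive. Pgk1 was most like Cpeb1, a cytoplasmic polyadenylation factor (r = 0.982, rho = 0.95, and r = 0.985 without the arrays farthest from the median, knockout 4 and 2). Eno2 was most like Sap130 (r = 0.972, rho = 0.946, 0.924 without the farthest arrays) and Ldha most like Pigbos1 (0.953, 0.933 and 0.924 for the same measures). Tpi1 was most like Ndufaf2 (r = 0.957, rho = 0.95), an assembly factor of respiratory complex I, with r = 0.873 without the farthest arrays. For Pgam1 and Selenof, a selenoprotein of the endoplasmic reticulum, r was 0.994, and 0.886 without knockout 4 and 1. These partners are among many: r was above 0.9 for 61 probes of other genes with Pgam1 and for 22 with Tpi1, against 0 to 9 for the other enzymes. Gapdh was most like Lig3, a DNA ligase (r = 0.924, rho = 0.914, 0.859 without the farthest arrays), and Pfkm most like Atp2c1 (0.92, 0.85 and 0.824). The likeness of Ldhb to Usp49 (r = 0.933, rho = 0.633) dropped to 0.632, and that of Aldoa to Cdc42 (0.825 and 0.85) to 0.615, without the farthest arrays.

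Of the other genes of the pathway, each by its brightest probe, 0 passed the threshold. Of 21 other glycolytic enzymes 11 had a probe and 10 passed the filter, 6 with a higher and 4 with a lower mean in knockout, at a median log2 difference of 0.005 (range -0.12 to 0.20). Minpp1, an inositol polyphosphate phosphatase that also acts on bisphosphoglycerate, was at 8.38 ± 0.27 in knockout (SD, n = 4) and 8.17 ± 0.11 in wild type (SD, n = 5), a difference of 0.20 (95% interval -0.07 to 0.47, limma adjusted p = 0.571), and of 0.095 without knockout 4. Eno3, the muscle enolase, differed by 0.09 (limma adjusted p = 0.518). Hk1, the main hexokinase of brain, differed by -0.06, or -0.002 without knockout 4, and Pkm, the pyruvate kinase that closes the pathway, by -0.03.

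Of the bifunctional enzymes that set fructose 2,6-bisphosphate, the activator of phosphofructokinase, 3 of 5 were measured. Pfkfb2 was at 8.74 to 9.27 on the knockout arrays, with a mean of 9.08 ± 0.23 (SD, n = 4), against 8.59 ± 0.16 (SD, n = 5) in wild type with a highest value of 8.87. Its log2 difference of 0.49 (SE 0.12, 95% interval 0.22 to 0.75) had a limma adjusted p = 0.204. Without knockout 4 the difference was 0.457. Without knockout 1 it was 0.60 with a limma adjusted p = 0.0482, in a fit where 48 of all probes passed, against 4 with all arrays. Pfkfb3 differed by -0.15 and Pfkfb4 by 0.003. Only 2 of 13 genes of glucose and lactate transport were measured: Emb, a partner of monocarboxylate transporters, differed by 0.54 (95% interval 0.06 to 1.03, limma adjusted p = 0.383), and Slc2a8, an intracellular glucose transporter, by 0.04. The glucose transporters Slc2a1 and Slc2a3 had no probe with their number.

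At the exit of the pathway, 2 of 14 genes of pyruvate entry to mitochondria were measured, Mpc2 of the pyruvate carrier at 0.16 and Pdhb of pyruvate dehydrogenase at 0.07. Genes of the NADH shuttles were higher in 2 and lower in 2 of 4, with Got2 at -0.06 and Mdh2 at 0.18, or 0.042 without knockout 4. Of the pentose phosphate genes 3 were measured, with Pgd at -0.06 and Taldo1 at -0.06, while Tkt, transketolase, was at -0.01 on its brighter probe and 0.046 on its dimmer one. For glycogen, Phka2, a phosphorylase kinase subunit, stood alone at -0.07, and no gluconeogenesis gene passed the filter. Of 27 genes of HIF and its other targets 5 were measured, 1 higher and 4 lower, with a median of -0.08. Egln1, the hydroxylase that marks HIF for degradation, was at -0.32 (limma adjusted p = 0.247) and Trf, transferrin, at -0.38 (adjusted p = 0.454), or -0.198 without knockout 4.

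**Figure D5:**
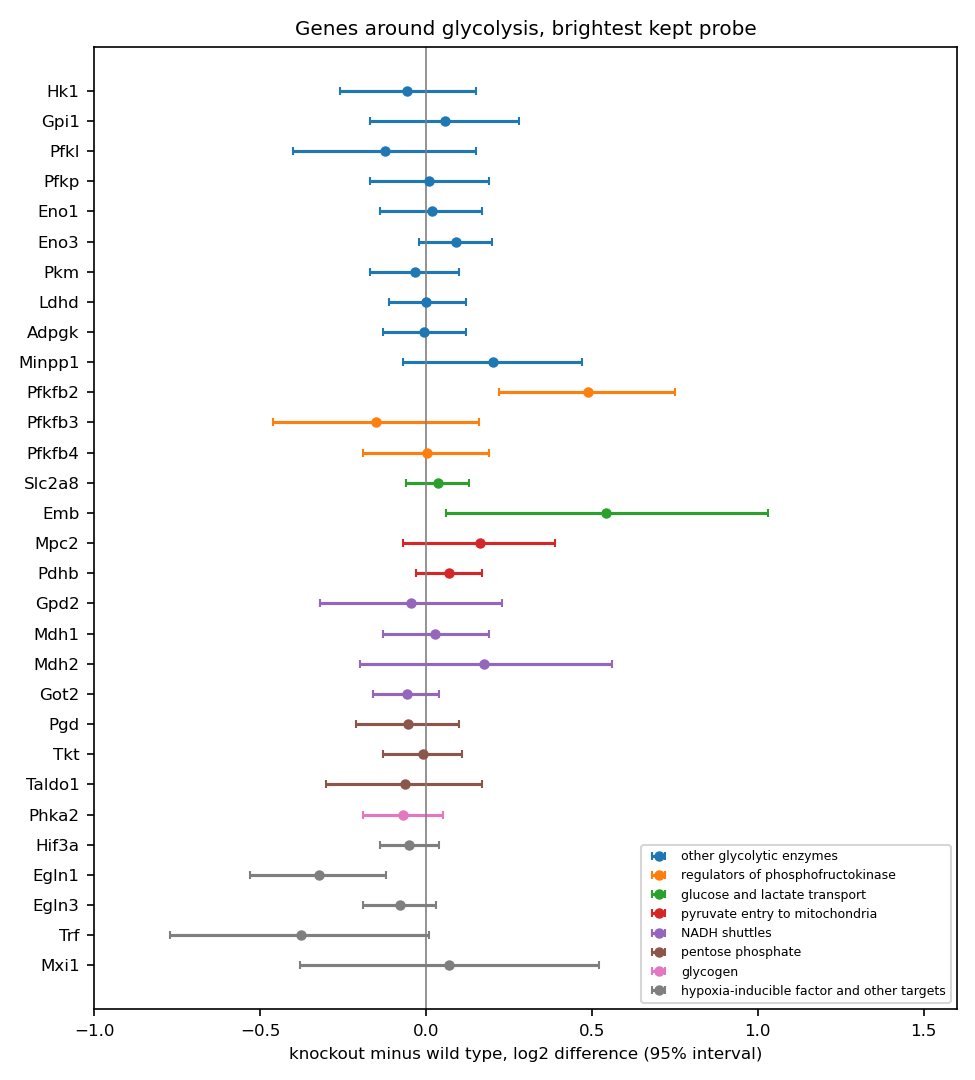
Log2 difference, knockout minus wild type, of 30 genes around glycolysis with 95% intervals from limma, coloured by gene list, each gene by its brightest probe that passed the filter. Most intervals span 0, those of Pfkfb2 and Emb lie above it and that of Egln1 below it, and none had an adjusted p under 0.05.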

How the data were processed

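Brain RNA of 4 knockout and 5 wild-type mice, each array taken as 1 animal as the design text counts them, was labelled with biotin, per the labels' protocols. The authors deposited intensity values without normalization, per the file headers. The fraction deposited beside each signal is headed as a detection p-value but rose with the signal (lowest rank correlation 0.992), so 1 minus it was used. The deposited processed values are log2, from their range.

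From 46120 rows, 4 control rows were left out, and 46116 signals were corrected for background by normexp, quantile normalized and put on the log2 scale with an offset of 16, using the neqc function (limma 3.58.1, R 4.3.3). Of these, 16375 were detected (p under 0.05) on 4 arrays or more and were kept, 4634 of them (28.3%) with a name. Knockout and wild type were compared with lmFit and eBayes, two-sided, Benjamini-Hochberg adjusted over all kept probes, threshold 0.05, and every adjusted p comes from that fit or its alternatives. The number of arrays limits the precision. Names come from a RefSeq table of GRCm38.p6 by the number in the identifier, an inference (the table held 81.1% of the numbers, but 42.5% to 45.9% of numbers shifted by a small amount). A gene with several probes is read from its brightest kept probe, and further probes are given for the genes discussed.

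The members and lists were chosen with earlier results of these data known. Named are all probes of the enzymes, the 2 genes of smallest p in each list, and the gene most like each enzyme. Hk1, Pkm, Pfkfb4, Rbfox3, Syt1, Tubb3, Map2, Mobp, Mog, Cnp, Tkt, Ldhd, Adpgk, Gpd2 and Gpi1 were named after their values were seen. One gene of the lists is not reported here. Alternatives were other readings of the labels, filters, background correction, normalization, array weights, priors, a replicate block, Xist level and leaving out each array. The fit was also run on simulated data, whose outcome is not given here.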

Additional observations from a re-analysis of the deposited data

Results flagged for a closer look

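In 22 groups of arrays (11 probes in knockout and in wild type), 1 held an array whose gap to its nearest neighbour, divided by the range of its group, passed Dixon's critical value for 95%: the dim probe of Pfkm was at 7.41 on knockout 1, where the nearest knockout array was at 7.17. On the dim Tpi1 probe and on Pgam1 knockout 4 had wider gaps, but in groups of wider range, and did not pass. Chance alone gives about 1 in 20.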

How the results depend on the processing

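No alternative put a glycolytic probe past the threshold, and the smallest adjusted p of any was 0.119 (dim Tpi1 probe, array weights). Over all probes, 4 at the settings of the report became 0 with the genotype characteristic, 0 with titles read through the processed table, 0 with the characteristic read through it (669, 615 and 391 at an unadjusted p under 0.05) and 0 with detection on all arrays (1436), then 11 without background correction, 2 with median scaling, 13 with the processed values, 7 with a mean-dependent robust prior, 2 with Xist as a covariate, and 2 to 48 without 1 array, the 48 without knockout 1. Pathway genes past the threshold were 0 to 1 without 1 array.

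The sign of member differences turned mainly with the reading of the labels. Only the reading used for the report divides the arrays as detection of NeoR-S does. With the characteristic the log2 differences were -0.066 for Pgk1, -0.045 and 0.139 for the bright and dim Pfkm probes, 0.145 for Ldha, -0.119 and 0.33 for the bright and dim Tpi1 probes and -0.193 for Pgam1. With titles read through the processed table they were -0.027 for Pgk1, 0.003 for Eno2, -0.021 and 0.086 for Pfkm, -0.11 and 0.159 for Tpi1 and -0.226 for Pgam1. With the characteristic read through it Ldha was at 0.126. The group difference of Ldha minus Ldhb was 0.242 with the characteristic and 0.278 with it read through the processed table, -0.091 with array weights, and -0.052 to 0.148 without 1 array. The cause was not tested. Gapdh was at 0.047 with median scaling and 0.045 with cyclic loess, Aldoa at -0.01 with cyclic loess and -0.015 with array weights, and Pgam1 at -0.01 with array weights. Averaging the probes of a gene gave -0.186 for Tpi1 and -0.056 for Pfkm. Without 1 array in turn the range was -0.038 to 0.039 for Aldoa, -0.052 to 0.012 for Gapdh, -0.139 to 0.007 for Ldha and -0.103 to 0.219 for Pgam1.

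The replicate block left 1 probe past the threshold over all probes and changed no member's call. Same-numbered arrays deviated together at r = -0.309 to 0.101, so the numbers were not taken as pairs.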

Other observations

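Several genes around the pathway have a further compared probe, and the probes of a gene did not always give the same sign. For Mpc2 the knockout minus wild type log2 differences were 0.16 and 0.17, and for Egln1 -0.32 and -0.10, brighter probe first. For Gpi1, glucose phosphate isomerase, the enzyme ahead of phosphofructokinase, they were 0.06 and -0.31, the second with a 95% interval of -0.87 to 0.24. The bright minus dim difference of Gpi1 was 3.69 on knockout 4 and 2.40 to 2.73 on the other knockout arrays, against 2.39 to 2.76 on the wild-type arrays. For Gpd2, the mitochondrial glycerol phosphate dehydrogenase, they were -0.05 and 0.17, but the brighter probe was at 0.078 without knockout 4. Tkt was at -0.01 and 0.046, Ldhd at 0.001 and 0.01, and Adpgk at -0.005 and -0.011.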
